A study of Bos taurus and Bubalus bubalis with 9 samples.

Results

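Circular RNAs of HIPK3, ZNF609, FBXW7, SMARCA5 and CDYL, genes that are known as circRNA hosts in several mammals, were followed in muscle and adipose tissue. The members were chosen by the host gene symbol in the tables of back-splice junctions. They came to 21 junctions of the 20659 that had a read in the 9 libraries, namely 11 of HIPK3, 6 of SMARCA5, 3 of FBXW7 and 1 of ZNF609. CDYL was the symbol of 0 rows and was dropped. The libraries were 3 of longissimus dorsi muscle of Xinyang buffalo, 3 of longissimus dorsi muscle of Nanyang cattle and 3 of back subcutaneous fat of Nanyang cattle. All animals were weaned at 3 months, castrated at 6 months, fattened from 18 months and slaughtered at 30 months. The labels describe the buffalo as low and the cattle as high in intramuscular fat. Per the series' design both cattle tissues come from the same 3 cattle, but the labels do not say which muscle and adipose libraries share an animal, and the tests treat the libraries as independent. The species were raised at different farms, so species and farm cannot be told apart.

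A circRNA forms when the spliceosome joins the end of an exon to the start of the same or an earlier exon, and the closed loop resists exonucleases. Reads across that back-splice junction are the only reads that separate the circle from the linear mRNA of the same gene. HIPK3 encodes a nuclear serine/threonine kinase of the homeodomain-interacting family, and its circle is among the most abundant in many mammalian tissues. ZNF609 encodes a zinc finger protein whose circle has been studied in myoblasts. FBXW7 encodes the substrate-recognition subunit of an SCF ubiquitin ligase. SMARCA5 encodes the ATPase of ISWI chromatin remodelling complexes.

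The level of a junction was given as RPM, which the files give per junction. The total that served as its denominator is not given in the sources used here, and the ratios between species depend on it. A single read was worth 0.0152 to 0.0280 RPM, and the limit that a count of 0 allows, 3 reads, was 0.0456 to 0.0840 RPM. The buffalo muscle libraries held 4472 to 6122 junction reads, the cattle muscle libraries 15440 to 27141 and the cattle adipose libraries 12042 to 21053. The members took 49, 359 and 420 of these reads in the 3 groups, and HIPK3 took 766 of the 828 (92.5%). Circles of marker genes followed the labelled tissues. The summed RPM of the 13 skeletal muscle markers, 10 of them found as hosts, was 11.6 to 13.6 in buffalo muscle, 24.2 to 32.8 in cattle muscle and 0 to 0.0269 in cattle adipose tissue. NEB, with 607 to 968 reads in a muscle library, and MYBPC1, with 61 to 412, made up nearly all of it. TTN and DES were not named as the host of any read. That of the 11 adipocyte markers, 5 found, was 0 to 0.0157, 0.0265 to 0.0840 and 0.489 to 0.669. It was mostly PPARG, with 17, 23 and 22 reads in the adipose libraries. ADIPOQ and LEP were not named as the host of any read. LPL had 1, 3 and 0 reads in cattle muscle against 1, 1 and 0 in adipose tissue, and the 1 read of CIDEC was in buffalo muscle 2. In cattle 1205 rows had no host symbol, so a gene that is not named may still have given circles.

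HIPK3 lies on the forward strand of chromosome 15 (UMD3.1, ENSBTAG00000014884). Its 11 junctions stretched from position 64704077 to position 64757126. The dominant junction was chr15:64704077-64705175, which spans 1099 bases and which the files class as exon and intron. In buffalo muscle it had 12, 6 and 7 reads, or 0.182, 0.0942 and 0.117 RPM (0.131 ± 0.0459, SD, n = 3). In cattle muscle it had 42, 123 and 96 reads, or 1.11, 2.91 and 2.69 RPM (2.24 ± 0.981, SD, n = 3). In cattle adipose tissue it had 63, 153 and 158 reads, or 1.71, 4.11 and 4.07 RPM (3.30 ± 1.37, SD, n = 3). Library 1 was the lowest in both cattle tissues, and the cattle groups overlapped. Every cattle muscle library was above every buffalo library, as for 55% of the junctions compared between the species. The filter of that set favoured junctions higher in cattle.

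The dominant HIPK3 junction was among the most abundant of each cattle adipose library. It ranked 3, 2 and 1 of the 4918, 6411 and 4178 junctions found there. In cattle muscle its ranks were 28, 11 and 15, and in buffalo muscle they were 40, 123 and 63. It took 0.523%, 0.727% and 1.12% of all junction reads of the adipose libraries, against 0.272%, 0.453% and 0.438% in cattle muscle. Every adipose share was above every muscle share, as for 12.5% of the 1917 junctions tested in cattle, and such a share depends on the other circles of the library as well as on HIPK3. In bulk tissue, fewer cells of a type and less RNA per cell cannot be told apart.

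**Figure D1:**
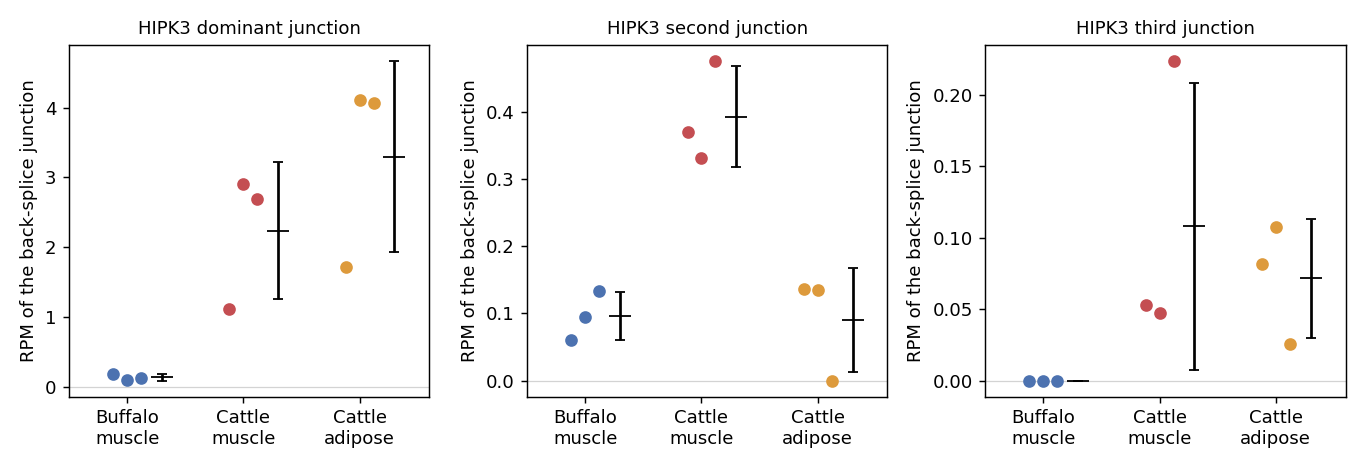
RPM (linear axis) of the 3 HIPK3 junctions with the most reads, with a point for each of the 3 libraries of a group and, beside them, the mean with its SD. The dominant junction was lowest in buffalo muscle (0.0942 to 0.182 RPM), and the second junction was higher in the 3 cattle muscle libraries (0.331 to 0.476 RPM) than in the 3 adipose libraries (0 to 0.136 RPM).

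The second junction, chr15:64742620-64745544, spans 2925 bases and is classed as exonic. It had 4, 6 and 8 reads in buffalo muscle, or 0.0608, 0.0942 and 0.133 RPM. It had 14, 14 and 17 reads in cattle muscle, or 0.370, 0.331 and 0.476 RPM (0.393 ± 0.0749, SD, n = 3). It had 5, 5 and 0 reads in cattle adipose tissue, or 0.136, 0.134 and 0 RPM (0.0900 ± 0.0780, SD, n = 3). The cattle tissues did not overlap, as for 23.3% of all tested junctions, and muscle was the higher, opposite to the means of the dominant junction.

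The third junction, chr15:64734178-64745544, spans 11367 bases and ends at the same position as the second. It had 0 reads in buffalo muscle, 2, 2 and 8 in cattle muscle and 3, 4 and 1 in adipose tissue. The remaining 8 junctions held 13 reads together, 5 of them with a single read. The 11 junctions used 4 starts and 8 ends. The start of the dominant junction was shared by 4 junctions, and the end of the second by 3. The junction from that start to position 64734301 was found in both species, with 2 reads in buffalo muscle 3 and 1 read in cattle muscle 1. In cattle, 302 of the 4724 host genes (6.39%) had 11 or more junctions, and the median host had 2.

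**Figure D2:**
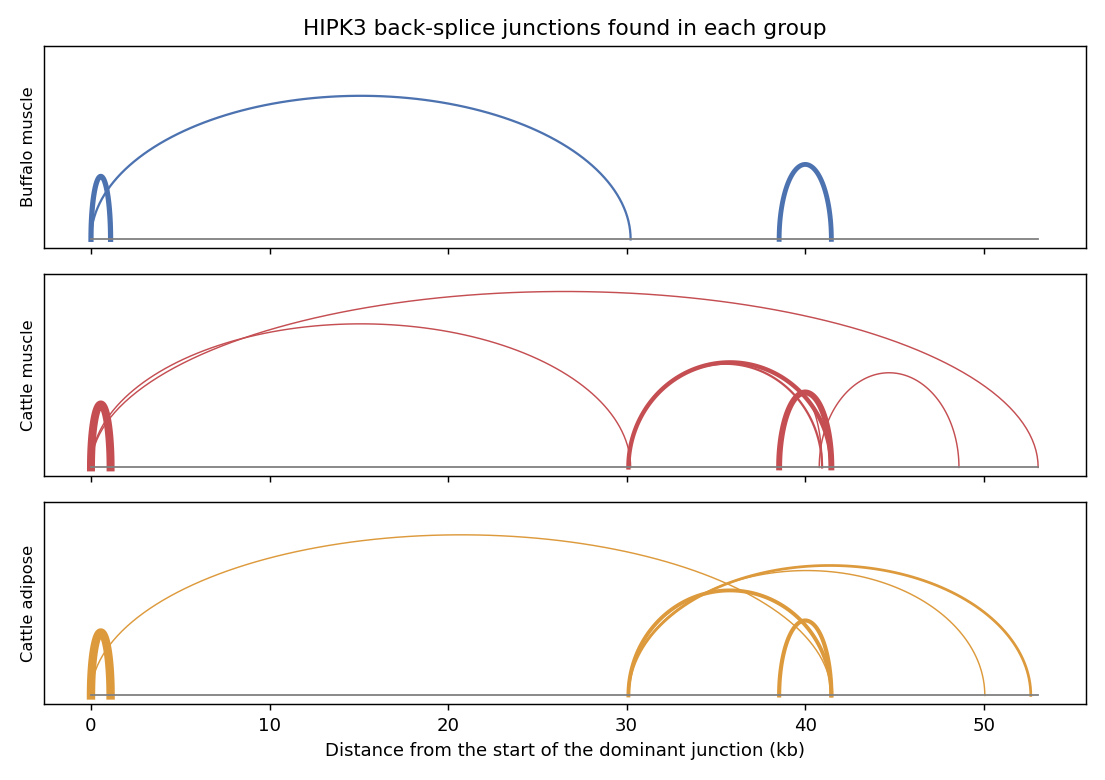
HIPK3 back-splice junctions found in each group, drawn as arcs over the distance in kb from the start of the dominant junction, with the line width rising with the log10 of the summed reads of the 3 libraries and no scale on the height. The short dominant arc at the left and the second junction near 40 kb occur in all 3 groups, whereas most of the long arcs rest on 1 to 3 reads.

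The tissue comparison asked whether the member circles differed between cattle muscle and cattle adipose tissue. Of the 21 member junctions, 5 had at least 2 reads in at least 3 of the 6 cattle libraries and were tested by limma on log2(RPM + 0.1). Among all 1917 junctions tested, 92 passed an adjusted p of 0.05 (4.8%), 86 of them higher in muscle (4.49%) and 6 higher in adipose tissue (0.313%). Scaling to the total of junction reads gave 82 and 40. The count was 40, 24 and 22 without cattle muscle 1, 2 and 3. Of the 5 member junctions, 0 passed in limma, edgeR or DESeq2 (which gave no adjusted p for 1 of them), and 1 had an unadjusted p under 0.05 in each, against 20% of all junctions by limma. It was the second HIPK3 junction. In limma with scaling to junction reads 2 had such a p, the other being the dominant HIPK3 junction.

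The dominant HIPK3 junction differed by -0.55 (SE 0.50) on the log2 scale, muscle minus adipose, with a 95% interval from -1.58 to 0.49 (limma adjusted p = 0.617). The difference was within the spread of the libraries taken as independent. Muscle was the lower at each replicate number, and with that number as a block the SE was 0.32 (limma adjusted p = 0.317). The difference was -0.95 (SE 0.33, limma adjusted p = 0.0786) under scaling to junction reads, and ran from -0.13 without cattle muscle 1 to -0.95 without cattle adipose 1. Its direction held in each alternative, with an adjusted p of 0.0786 to 0.963.

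The second HIPK3 junction differed by 1.47 (SE 0.46), with an interval from 0.50 to 2.44 in limma. Its p was 0.00498 in limma before adjustment, and 0.0693 after Benjamini-Hochberg adjustment over all junctions. The difference did not pass the threshold. Among the alternatives that turned the call, it passed in limma without cattle adipose 1 (adjusted p = 0.0458), without cattle adipose 2 (0.0302) and where at least 5 reads were asked of a junction (0.0362). Of all junctions, 86 of 1633, 120 of 1478 and 122 of 622 passed in these settings, and 214 of 1917 with the replicate number as a block. The second junction did not pass without cattle adipose 3 (1.06, limma adjusted p = 0.244). Nor did it without cattle muscle 1, 2 or 3 (limma adjusted p = 0.151, 0.233 and 0.266). Over the alternatives the difference ranged from 0.35 to 2.38 and the adjusted p from 0.0146, with the replicate number as a block, to 0.475. The third junction differed by 0.21 (SE 0.45), with a limma adjusted p of 0.853, and its sign changed when cattle muscle 3 or cattle adipose 3 was left out.

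**Figure D3:**
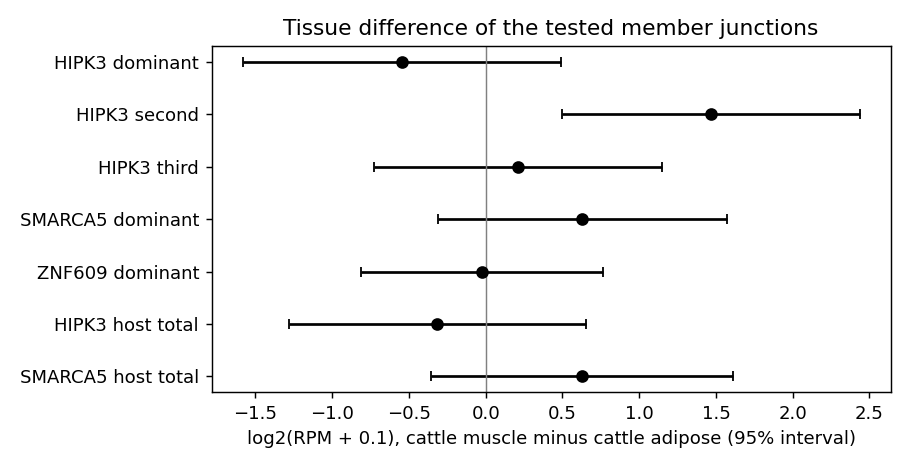
Difference of log2(RPM + 0.1), cattle muscle minus cattle adipose tissue, for the 5 tested member junctions and 2 host totals, with limma's 95% interval before adjustment. The interval of the second HIPK3 junction (0.50 to 2.44) lies above 0 although its adjusted p is 0.0693, and the other intervals include 0.

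The makeup of the HIPK3 reads was compared as shares within each library, which removes the scaling of the library. The dominant junction took 75%, 50.0% and 41.2% of the HIPK3 reads of buffalo muscle, 71.2%, 87.9% and 76.8% of those of cattle muscle and 87.5%, 92.2% and 99.4% of those of the adipose libraries. The second took 25.0%, 50.0% and 47.1% of the buffalo reads, 23.7%, 10% and 13.6% of the cattle muscle reads and 6.94%, 3.01% and 0% of the adipose reads. The adipose share of 0 of 159 reads allows up to 2.29% (exact Clopper-Pearson interval, 95%). In buffalo muscle the shares rest on 12 to 17 reads, and the interval of buffalo muscle 1 ran from 7.27% to 52.4%. Such intervals cover counting error only.

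The share of the second junction was 15.8% ± 7.12 in cattle muscle and 3.32% ± 3.48 in the adipose libraries (SD, n = 3 each), a difference of 12.5 points (p = 0.1 by exact permutation, two-sided, the lowest value possible with 3 libraries against 3). Its groups did not overlap, as in 14.1% of the 99 hosts with at least 10 reads in each of the 6 libraries. Buffalo muscle, at 40.7% ± 13.7, was 24.9 points above cattle muscle (exact permutation p = 0.1, n = 3 each). There too the groups did not overlap, but neither did they in 50% of the 24 hosts that could be compared. The dominant junction differed by -14.4 points between cattle muscle and adipose tissue and by -23.2 points between buffalo and cattle muscle (exact permutation p = 0.2 for both, n = 3), and its groups overlapped. Over these 4 tests the Benjamini-Hochberg adjusted p was 0.2 for each. The share of the second junction was chosen after its values had been seen.

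**Figure D4:**
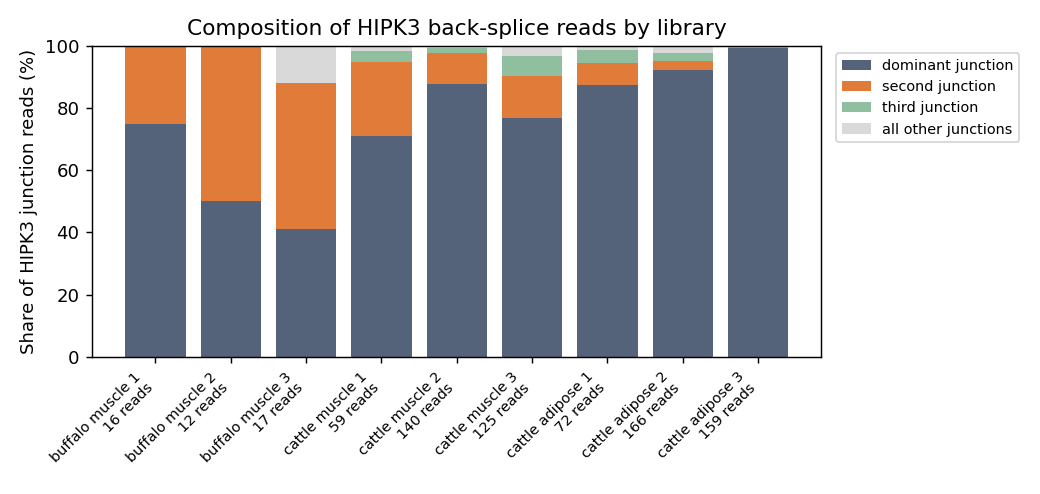
Composition of the HIPK3 back-splice reads of each library in percent, with the number of HIPK3 reads under each bar. The second junction takes 25.0% to 50.0% in buffalo muscle, 10% to 23.7% in cattle muscle, and 0% to 6.94% in adipose tissue.

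Summed over its junctions, HIPK3 reached 0.243, 0.188 and 0.283 RPM in the buffalo libraries, 1.56, 3.31 and 3.50 RPM in cattle muscle and 1.95, 4.46 and 4.09 RPM in adipose tissue. By mean RPM it was host 34 of 2257 in buffalo muscle, 12 of 3856 in cattle muscle and 3 of 3686 in adipose tissue. Over all hosts tested in cattle, 140 of 1830 passed (7.65%), 107 higher in muscle (5.85%) and 33 higher in adipose tissue (1.8%). Scaling to junction reads gave 93 and 79. The count fell to 61, 48 and 34 without cattle muscle 1, 2 and 3, and to 80 and 75 without cattle adipose 1 and 3. Of the 4 member hosts 0 passed in limma, edgeR or DESeq2, and 0 had an unadjusted p under 0.05 in any of them, against 17.6% of all hosts by limma. The HIPK3 total differed by -0.32 (SE 0.49, limma adjusted p = 0.790). Under scaling to junction reads it was -0.72 (limma adjusted p = 0.174), with an unadjusted p under 0.05, and without cattle muscle 1 it was 0.044, a change of direction.

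SMARCA5, on the reverse strand of chromosome 17 (ENSBTAG00000003399), had its dominant junction at chr17:14553435-14553894, an exonic circle spanning 460 bases. It had 0, 1 and 0 reads in buffalo muscle, 5, 9 and 3 in cattle muscle and 5, 2 and 0 in adipose tissue. The RPM was 0.143 ± 0.0651 in cattle muscle and 0.0632 ± 0.0683 in adipose tissue (SD, n = 3 each), and the groups overlapped. The difference of 0.63 (SE 0.45) on the log2 scale had an interval from -0.31 to 1.57 (limma adjusted p = 0.510). The other 5 junctions of the gene held 1 to 6 reads each. The most read of them, chr17:14574719-14579905, had 4 reads in cattle muscle 2 and 2 in cattle adipose 2. The junction chr17:14569881-14572736 had 3 reads, all in cattle adipose 2, or 23.1% of the gene's adipose reads. All 6 together gave 0.212 ± 0.0887 RPM in cattle muscle and 0.117 ± 0.102 in adipose tissue, a difference of 0.63 with a limma adjusted p of 0.575. Without cattle adipose 3, which had no read of the dominant junction, that junction differed by 0.32 and the total by 0.14.

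ZNF609, on the reverse strand of chromosome 10 (ENSBTAG00000015808), had a single exonic junction, chr10:45609923-45610796, spanning 874 bases. Its reads were 3, 0 and 0 in buffalo muscle, 1, 1 and 4 in cattle muscle and 2, 3 and 1 in adipose tissue. The cattle tissues had like means, 0.0540 ± 0.0502 and 0.0536 ± 0.0275 RPM (SD, n = 3 each), both near or under the limit that a count of 0 allows. The difference was -0.03 (SE 0.38, limma adjusted p = 0.978), and its sign changed when cattle muscle 1 or 2 was left out. A further row of the buffalo table that names TRIP4 and ZNF609 together had 0 reads in muscle and was not counted.

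FBXW7, on the forward strand of chromosome 17 (ENSBTAG00000007953), was the least read member, with 4 reads in each cattle tissue and 0 in buffalo muscle. Its dominant junction, chr17:5237297-5305025, spans 67729 bases and is classed as exon and intron. It had 1, 2 and 1 reads in cattle muscle and 1, 0 and 0 in adipose tissue, too few to be tested. A junction at chr17:5316915-5326714 had 2 reads in cattle adipose 2, and 1 at chr17:5301815-5305025 had a read in cattle adipose 1.

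**Figure D5:**
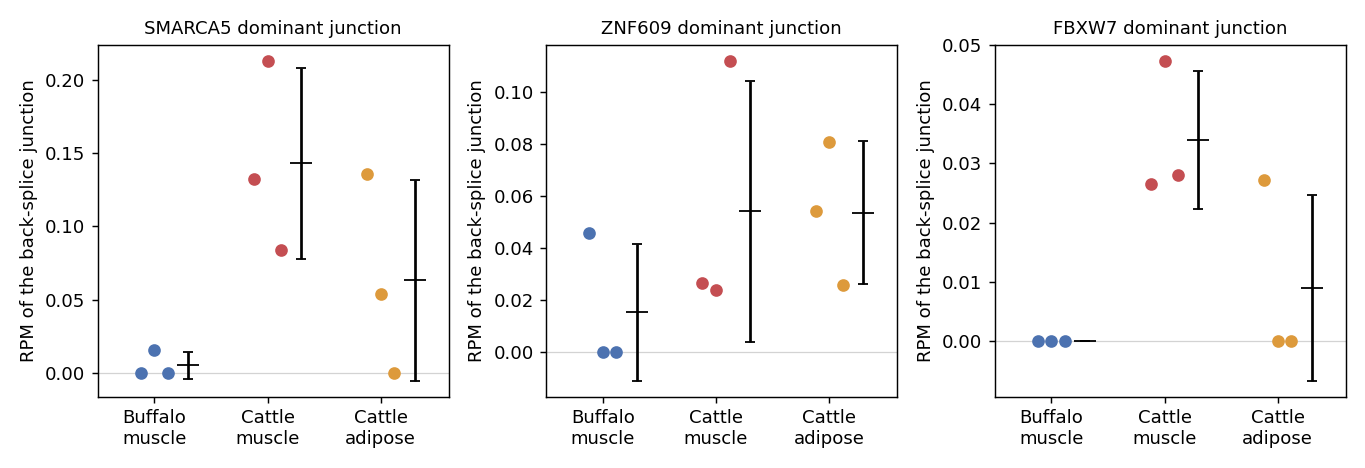
RPM (linear axis, a scale of its own for each gene) of the dominant junctions of SMARCA5, ZNF609 and FBXW7, with a point for each library and the mean with its SD. All points rest on 0 to 9 reads, and the SD bars that reach below 0 mark groups in which some libraries had no read.

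The circles of the members were then set beside each other in muscle of the 2 species. The tables were normalised separately and the buffalo reads were aligned to the cattle genome, so the RPM levels of the species were not tested against each other. All 5 member junctions of buffalo muscle recurred at identical coordinates in the cattle libraries, as did 2613 of all 4737 (55.2%). With at least 2 reads, 4 of 4 recurred against 66.7% of all.

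The dominant HIPK3 junction had 17.1 times the RPM in cattle muscle, and this ratio exceeded that of 79.5% of the 818 junctions found in muscle of both species with at least 2 reads in at least 3 of the 6 muscle libraries. Their median ratio was 5.84. Every cattle RPM was above every buffalo RPM in 55% of them and below in 1.96%. A junction could enter this set through its cattle libraries with a single buffalo read, and the cattle libraries held more junction reads. The set therefore favours junctions higher in cattle, and these figures are not a neutral background. As a share of all junction reads, the dominant HIPK3 junction was at 0.160% ± 0.0644 in buffalo muscle and 0.388% ± 0.101 in cattle muscle (SD, n = 3 each). The ratio was 2.42 and the groups did not overlap, which held in that direction for 12.6% of the shared junctions. The second HIPK3 junction had a ratio of 4.08 by RPM and 0.624 by share of junction reads, where its groups overlapped. ZNF609 had ratios of 3.55 and 0.502 and overlapped on both scales. All 3 of its buffalo reads were in buffalo muscle 1, and its log2 ratio by RPM was 1.83 with all libraries and 0.72 without cattle muscle 3. SMARCA5 had a single read in buffalo muscle against 17 in cattle muscle on its dominant junction.

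The mRNAs of the hosts were measured in buffalo muscle. HIPK3 had 187, 151 and 151 FPKM (163 ± 20.8, SD, n = 3), rank 516 of 19917 transcripts. SMARCA5 had 86.2, 63.3 and 45.5 FPKM, FBXW7 had 14.8, 16.3 and 18.3 FPKM, and ZNF609 had 9.73, 8.38 and 11.7 FPKM. The 4 genes kept this order in every library. The reads on their circles were 45, 1, 0 and 3, and below HIPK3 these are too few to order. FPKM is scaled to transcript length whereas a junction has no length, so the levels were not compared. Cattle mRNA was not analysed here.

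The kinases most like HIPK3 also gave circles. HIPK1 had 109 reads in cattle muscle, 119 in cattle adipose tissue and 1 in buffalo muscle, and HIPK2 had 37, 47 and 6. Cattle HIPK1 stood at 0.939 ± 0.105 RPM in muscle and 1.06 ± 0.467 in adipose tissue (SD, n = 3 each). Its most read junction, chr3:29541834-29552476, held 48.7% of its cattle reads, while that of HIPK2, chr4:104016436-104017519, held 84.5% and that of HIPK3 88.1%. In buffalo muscle the HIPK1 mRNA was at 18.1 FPKM and that of HIPK2 at 12.5 FPKM.

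Lists of related genes were described at host level beside the 7.65% of all hosts that passed, the 17.6% with an unadjusted p under 0.05 by limma and their median difference of 0.02. Scaling to junction reads moved that median to -0.18, and those of the paralogues to -0.29, the partners to -0.40 and the biogenesis genes to -0.42. Of 16 paralogues of the members, 6 were tested and 0 passed in limma, edgeR or DESeq2 (0 with an unadjusted p under 0.05), with a median of -0.05. FBXW4 was highest (0.39) and FBXW8 lowest (-0.95, limma adjusted p = 0.302), and FBXW8 passed under scaling to junction reads. Of 25 other hosts whose circles are known in several mammals, 17 were tested and 0 passed with any of these tools (3 unadjusted by limma), with a median of 0.18 that became -0.11 under scaling to junction reads. RHOBTB3 was highest (1.05, limma adjusted p = 0.232), and SLC8A1, the sodium/calcium exchanger, was lowest (-1.01, 0.251). Of 17 genes known for circRNA biogenesis or turnover, 4 were tested and 0 passed with any of these tools (1 unadjusted by limma), with a median of -0.14. Among them QKI was highest (0.90, limma adjusted p = 0.337) and MBNL2 lowest (-1.0, 0.259).

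Among 27 protein partners of the members, 9 were tested, 1 passed in limma, edgeR and DESeq2, and the median was -0.14. An unadjusted p under 0.05 was found for 1 by limma, and for 2 by edgeR with TMM and by DESeq2. The 1 that passed was CECR2, a bromodomain protein of an ISWI complex. Its circles had 17, 26 and 25 reads in cattle muscle, or 0.450, 0.615 and 0.700 RPM (0.588 ± 0.127, SD, n = 3), and 0 reads in each adipose library. Against the limit of 3 reads per adipose library, it was at least 7.37-fold higher in muscle. CECR2 met the filter on low values through its muscle libraries alone, so its passing is a description and no support for the difference. The lowest of the partners was RBBP7 (-0.40). The skeletal muscle markers moved with this difference, from 24.2 RPM or more to 0.0269 RPM or less, and their part in it was not tested.

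The junctions whose pattern was most like that of the dominant HIPK3 junction were sought over the 6 cattle libraries, by Pearson's r of log2(RPM + 0.1) among 118 others with at least 5 reads in each. They were hosted by CAAP1 (r = 0.96), KCTD9 (0.93) and CSNK1G3 (0.92). For ZNF609 they were those of WHAMM (0.94), ARHGAP10 (0.83) and SAMD4A (0.81), and for SMARCA5 those of ZNF532 (0.81), RAPGEF1 (0.79) and VAPA (0.75), each of 119. These values are a description of 6 libraries of 2 tissues and of unequal depth. Those of ZNF609 rest on 1 to 4 of its reads in a library, and those of SMARCA5 on 0 to 9.

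The class of the junctions was counted last. Of the 21 member junctions, 16 were classed as exonic and 5 (23.8%) as exon and intron, the class of 7.86% of all junctions. Of these 5, 4 were the HIPK3 junctions that share the start of the dominant one, so they are not independent of each other. The class is the deposited label, and whether these circles hold intron sequence was not tested.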

How the data were processed

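RNA of longissimus dorsi muscle and back subcutaneous fat was sequenced in the 9 samples used, from total RNA with a TruSeq RNA kit, whose standard protocol selects polyadenylated RNA. Circles carry no poly(A) tail, and no step to enrich them is given in the sources used here. Per the labels and the study's methods, reads were trimmed with Trim Galore, aligned to UMD3.1 with STAR and quantified with Cufflinks 2.2.1 and Cuffdiff. The circRNA caller is not given in the sources used here. The authors deposited back-splice junctions in RPM for buffalo and for cattle, and buffalo mRNAs in FPKM per transcript. Every RPM was a whole multiple of the smallest value of its column within 0.01 reads (100% of values), so whole reads were recovered. A table of lncRNAs was not used, nor were 9 columns named for buffalo adipose tissue in these tables, which belong to no sample here, so buffalo adipose tissue was not analysed here.

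The members and gene lists were chosen with earlier results of these data known. Named genes were the members, their dominant junctions (highest mean RPM over the 3 groups), junctions with at least 10% of a host's reads in a group, the 3 most alike junctions, and listed genes that passed or were highest or lowest of their list. The third HIPK3 junction, the HIPK3 junction ending at position 64734301, HIPK1, HIPK2 and the marker genes named singly fall outside this rule. They were chosen after their values were seen. Junctions and host totals with at least 2 reads in at least 3 of 6 cattle libraries were tested with limma 3.58.1 (R 4.3.3) on log2(RPM + 0.1), muscle against adipose tissue, with Benjamini-Hochberg adjustment. Fold changes on this scale understate those of low junctions. Shares were compared with exact permutation tests (scipy 1.17.1) where each library had at least 10 reads of the host. Alternatives were pseudocounts of 1 and 0.02, no filter, 5 reads, scaling to junction reads, a replicate block, edgeR 4.0.16 and DESeq2 1.42.0 on the recovered reads, and each library left out. The scripts were tested on simulated data, with 200 of 1917 cattle junctions changed. There the limma setting recovered 7.5% of the junctions changed 4-fold and 67.2% of those changed 16-fold. A junction that did not pass may therefore still differ. The denominator of the RPM is not given in the sources used here, and the size of a read implied library totals of 35.7 to 65.8 M.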

Additional observations from a re-analysis of the deposited data

How the results depend on the processing

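The members rest on few reads: apart from HIPK3, no junction had more than 9 reads in a library, and a p that misses the threshold at such counts does not show that the tissues are alike. The 92 junctions that passed became 160 with a pseudocount of 0.02, 49 without a filter, 214 with the replicate block and 163 with edgeR and TMM, and 22 to 120 with a library left out. The 140 hosts became 34 to 129 with a library left out. Scaling to junction reads moved the median of all junctions by -0.16 and of all hosts by -0.20.

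The difference of the second HIPK3 junction was 0.35 with a pseudocount of 1, 2.38 with 0.02, 2.08 with edgeR and TMM, 2.09 without TMM and 2.17 with DESeq2, and did not pass in any of these. It was 1.47 and passed with at least 5 reads (adjusted p = 0.0362) and with the replicate block (limma adjusted p = 0.0146), and ranged from 1.06 to 1.67 with a library left out. Samples with the same number had deviations correlated at 0.12, 0.098 and 0.029, and each muscle library correlated best with its own number. Deviations from a group mean cancel out, so some positive correlation was bound to arise for each muscle library. The junction reads followed the number as well, with 15440, 27141 and 21901 in cattle muscle and 12042, 21053 and 14160 in adipose tissue. The labels do not say which numbers share an animal, so the numbers were not taken as pairs. With a library left out, the dominant HIPK3 junction ranged from -0.95 to -0.13, that of SMARCA5 from 0.32 to 0.94 and the SMARCA5 total from 0.14 to 0.91. With pseudocounts of 1 and 0.02 the SMARCA5 junction was at 0.10 and 1.34, and with DESeq2 at 1.11. With a library left out, the HIPK3 total ranged from -0.68 to 0.044 (reversed without cattle muscle 1), the third junction from -0.16 to 0.41 and ZNF609 from -0.16 to 0.11 (3 of 6 settings, since it fails the filter in the others). The third junction was at -0.00047 without cattle adipose 3, and ZNF609 was at 0.092 without cattle muscle 1. Between species, scaling to junction reads moved the log2 ratio of cattle to buffalo muscle from 4.09 to 1.27 for the dominant HIPK3 junction, from 2.03 to -0.68 for the second and from 1.83 to -0.99 for ZNF609. The causes were not tested.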
